A study of Homo sapiens with 14 samples.

Results

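Metallothioneins and the genes around the zinc response were followed in CWR22RV1 cells exposed to inhibitors of fucosylation or sialylation. The set held 10 genes of the 27819 listed in all 4 deposited count tables. It comprised the metallothioneins MT1E, MT1F, MT1G, MT1H, MT1M, MT1X and MT2A, the metal-sensing transcription factor MTF1, the zinc exporter SLC30A1 and the zinc importer SLC39A10. The genes were chosen by name after their RNA levels in these same libraries were known, so their differences from the control are given as a description, with a standard error (SE) but without a p-value.

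CWR22RV1 is an established prostate carcinoma line, and the study asked what blocking either kind of glycan changes in its transcripts. Every culture was of this 1 line and was kept for 72 h with solvent or inhibitor before mRNA sequencing. The control received DMSO (3 libraries), and 3 libraries each came from cells given 30 μM Fucotrim I, 100 μM SGN-2FF or 2 μM P-SiaFNEtoc, with 2 libraries for 60 μM Fucotrim II. Fucotrim I and Fucotrim II are rhamnose-1-phosphate derivatives aimed at de novo GDP-fucose synthesis, SGN-2FF is 2-fluorofucose, and P-SiaFNEtoc is a fluorinated sialic acid analogue that blocks sialyltransferases. The doses differed between all inhibitors, so their values are set side by side and no inhibitor was tested against another, and all 4 comparisons shared the same DMSO libraries.

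Metallothioneins are small cysteine-rich proteins that bind zinc, copper and cadmium and buffer the free metal in the cell. When zinc rises, MTF1 binds metal response elements in the promoters of metallothionein genes and of SLC30A1, whose product exports zinc across the plasma membrane, while importers of the SLC39 family bring zinc into the cytosol. Glucocorticoids and oxidants also induce metallothioneins, and normal prostate epithelium is known for its high zinc content, which prostate cancer cells lose.

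Total counts on genes ran from 12553094 to 19981453 per library, with a range of 15398797 to 17689717 in DMSO. All 10 markers of luminal prostate cells on the list, among them KLK3 and KRT8, were detected in every library, and the lowest count of any of them was 439 (KLK3). Markers of other cell types were at or near 0 for T cells (CD3E, 0 counts throughout), endothelium (PECAM1, at most 1 count) and leukocytes (PTPRC, at most 3 counts), whereas COL1A1 (209 to 485 counts), CD68 (64 to 128 counts) and SYP (1245 to 2753 counts) were present in every library. Summed over the 13 markers of other cell types, the level was 122 to 135 CPM (counts scaled to library size) in DMSO, 136 to 152 in Fucotrim I, 166 to 186 in Fucotrim II, 118 to 133 in SGN-2FF and 131 to 136 in P-SiaFNEtoc. Most of this sum was SYP, at 94.2 to 156 CPM over all libraries, followed by COL1A1 at 15.8 to 29.2 CPM. The share of counts on the 37 mitochondrially encoded genes was 5.98% to 7.03% in DMSO and 6.11% to 6.83% in P-SiaFNEtoc, against 8.67% to 14.2% in Fucotrim I, 12.2% and 17.03% in Fucotrim II and 8.27% to 8.68% in SGN-2FF.

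The 7 metallothionein genes lay together on chromosome 16 within 75.6 kb (hg38, GENCODE annotation). In genomic order they were MT2A (NCBI gene 4502, chr16:56608584-56609497), MT1E (4493, chr16:56625475-56627112), MT1M (4499, chr16:56632659-56633981), MT1F (4494, chr16:56657731-56660698), MT1G (4495, chr16:56666730-56668065), MT1H (4496, chr16:56669814-56671129) and MT1X (4501, chr16:56682470-56684196). MT1G was on the minus strand and the other members of the cluster on the plus strand. Their canonical transcripts had 3 exons and were 397 to 425 bases long, apart from MT1E with 2 exons and 746 bases. MTF1 (4520, chr1:37809574-37859592, 11 exons) and SLC30A1 (7779, chr1:211571568-211579161, 2 exons) were on the minus strand of chromosome 1, and SLC39A10 (57181, chr2:195575977-195737702, 10 exons) was on the plus strand of chromosome 2.

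Because paralogs can share reads, every 100-base window of each canonical transcript was searched for exact copies in other genes and in the genome. None was found for MT1E, MT1F, MT1G, MT1M, MT2A, SLC30A1 or SLC39A10. MT1H shared 3.36% of its windows with the intronless copy MT1HL1, MTF1 shared 0.0255%, and MT1X shared 21.97%, because a long non-coding RNA gene (ENSG00000259827) overlaps 40.8% of its exon bases on the same strand. Reads from that stretch of MT1X cannot be assigned to 1 of the 2 genes by sequence, and the part of this overlap in the MT1X values was not tested.

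The promoters of 4 members are shown because MTF1 is known to act through metal response elements in such promoters, and the letters of that element can be looked for in them. Each is the 250 bases before the RefSeq transcription start (GRCh38.p14), read 5′ to 3′ on the strand of the gene. Capitals mark matches to the core of the metal response element, TGCACNC or TGCGCNC on either strand. The windows are chr16:56608334-56608583 for MT2A, chr16:56682220-56682469 for MT1X, chr16:56669564-56669813 for MT1H (all plus strand) and chr1:211579162-211579411 for SLC30A1 (minus strand).
MT2A: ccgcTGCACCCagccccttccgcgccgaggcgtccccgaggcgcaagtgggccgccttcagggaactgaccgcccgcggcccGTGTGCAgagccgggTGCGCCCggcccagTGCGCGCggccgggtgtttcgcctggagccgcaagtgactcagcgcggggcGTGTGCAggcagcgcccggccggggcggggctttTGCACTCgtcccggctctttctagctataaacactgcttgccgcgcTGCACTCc
MT1X: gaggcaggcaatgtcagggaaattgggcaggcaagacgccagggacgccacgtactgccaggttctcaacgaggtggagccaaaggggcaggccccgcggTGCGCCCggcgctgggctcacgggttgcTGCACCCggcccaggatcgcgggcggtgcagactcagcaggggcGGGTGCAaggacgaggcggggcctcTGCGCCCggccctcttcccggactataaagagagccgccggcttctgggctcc
MT1H: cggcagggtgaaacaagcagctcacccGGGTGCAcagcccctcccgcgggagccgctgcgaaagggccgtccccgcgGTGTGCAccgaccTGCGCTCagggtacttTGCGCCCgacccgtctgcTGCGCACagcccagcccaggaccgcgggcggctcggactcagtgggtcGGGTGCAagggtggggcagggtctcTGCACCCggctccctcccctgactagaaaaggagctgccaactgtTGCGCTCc
SLC30A1: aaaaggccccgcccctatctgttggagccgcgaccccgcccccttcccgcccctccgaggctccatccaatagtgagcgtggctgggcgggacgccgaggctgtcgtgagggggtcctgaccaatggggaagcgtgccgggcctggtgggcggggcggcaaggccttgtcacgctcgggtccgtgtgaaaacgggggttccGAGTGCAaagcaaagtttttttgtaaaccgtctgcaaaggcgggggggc

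Of the 10 members, 6 matched an entry of the promoter table, and MT1E, MT1F, MT1G and MT1M did not. The MT1H window held 8 matches, 5 on the gene's strand and 3 on the other, the MT2A window held 7 (5 and 2), and the MT1X window held 4 (3 and 1). SLC30A1 had 1 match, on the other strand, 49 bases before the start. No match overlapped another. The windows of MTF1 and SLC39A10 (2 entries) held none, which says only that these letters are not in those windows. Among all 35116 promoter entries, 24.8% held at least 1 match, 0.37% at least 4 and 0.0513% at least 6. A match is a description of the sequence and not a measured binding site.

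**Figure D1:**
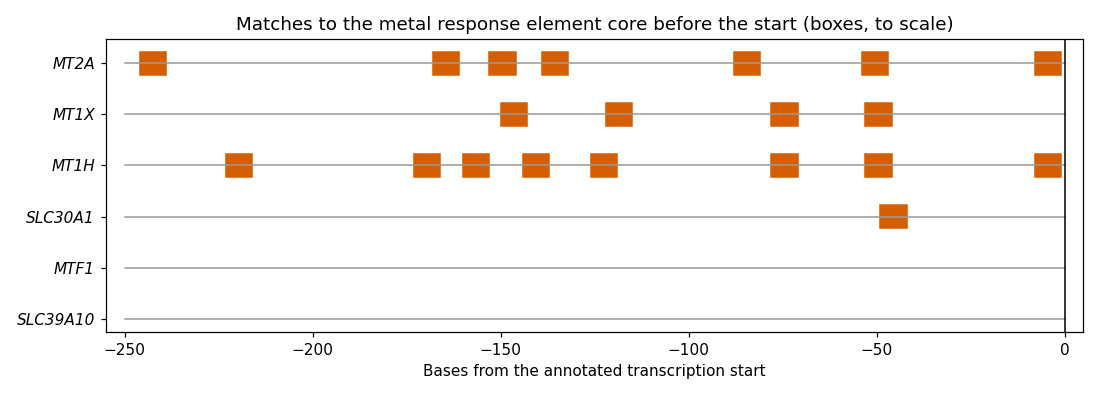
Positions of matches to the metal response element core in the 250 bases before the annotated start of 6 members. The horizontal axis gives bases from the start and each box is 1 match of 7 bases, with 7 in MT2A, 4 in MT1X, 8 in MT1H, 1 in SLC30A1 and none in MTF1 or SLC39A10.

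Levels are given as CPM after TMM scaling over all 14 libraries, and fold changes come from a fit of each inhibitor with DMSO. MT2A was the most abundant metallothionein. In DMSO it stood at 111, 120.1 and 132 CPM. With Fucotrim I it stood at 193, 151 and 181 CPM, with Fucotrim II at 215 and 277 CPM, with SGN-2FF at 280.1, 241 and 225 CPM, and with P-SiaFNEtoc at 127, 146 and 149.9 CPM. Every library with a fucosylation inhibitor lay above DMSO, while the P-SiaFNEtoc libraries overlapped it. In such bulk libraries, a change in how many cells hold a transcript and a change in its level per cell cannot be told apart. The log2 fold change was 0.55 (SE 0.09) with Fucotrim I, 1.02 (SE 0.11) with Fucotrim II, 1.06 (SE 0.10) with SGN-2FF and 0.22 (SE 0.07) with P-SiaFNEtoc.

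MT1G had the steepest differences of the 4 abundant metallothioneins in every comparison. Its DMSO libraries held 10.4, 10.2 and 11.1 CPM. Those with Fucotrim I held 29.2, 22.8 and 23.6 CPM, those with Fucotrim II 41.9 and 43.7 CPM, those with SGN-2FF 36.7, 30.5 and 32.7 CPM and those with P-SiaFNEtoc 16.1, 15.01 and 15.9 CPM. Every treated library was above every control library. On the fitted scale this was 2.40-fold with Fucotrim I (log2 1.26, SE 0.10), 4.03-fold with Fucotrim II (log2 2.01, SE 0.09), 3.17-fold with SGN-2FF (log2 1.66, SE 0.08) and 1.49-fold with P-SiaFNEtoc (log2 0.57, SE 0.09).

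MT1E was nearly constant among the controls, at 25.0, 25.7 and 25.4 CPM. It reached 45.3, 42.2 and 46.4 CPM with Fucotrim I, 69.8 and 65.2 CPM with Fucotrim II, 59.2, 59.97 and 58.4 CPM with SGN-2FF and 30.9, 30.1 and 34.1 CPM with P-SiaFNEtoc. None of the treated libraries overlapped DMSO. The log2 fold changes were 0.82 (SE 0.07), 1.41 (SE 0.07), 1.24 (SE 0.06) and 0.32 (SE 0.07) in the same order.

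MT1X followed the same order of groups. Its levels were 18.7, 16.7 and 16.1 CPM in DMSO, 37.7, 31.4 and 35.2 CPM with Fucotrim I, 53.8 and 58.2 CPM with Fucotrim II, 45.6, 40.3 and 42.5 CPM with SGN-2FF and 22.8, 20.0 and 24.1 CPM with P-SiaFNEtoc. Again no treated library fell within the range of the controls. The log2 fold change was 1.03 (SE 0.09) with Fucotrim I, 1.70 (SE 0.09) with Fucotrim II, 1.33 (SE 0.07) with SGN-2FF and 0.38 (SE 0.08) with P-SiaFNEtoc.

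**Figure D2:**
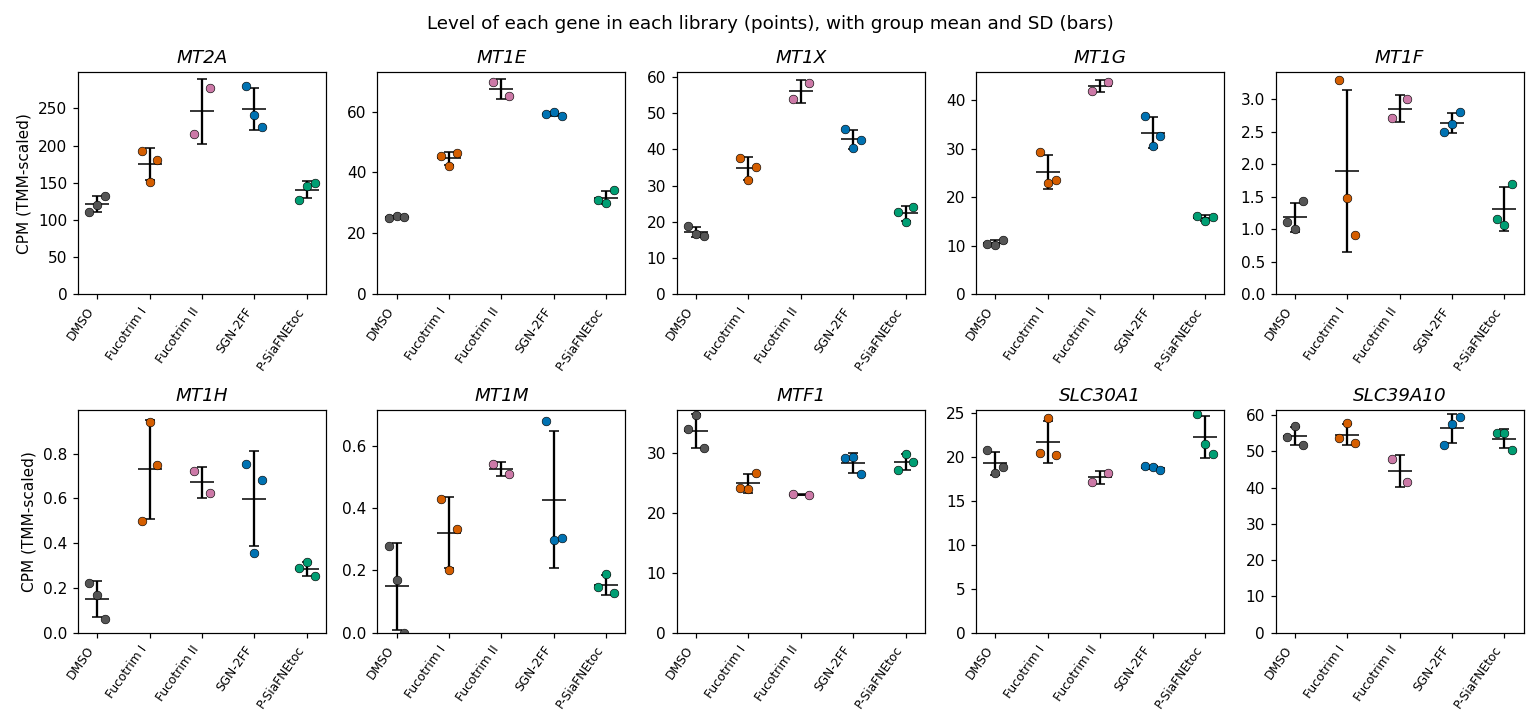
CPM of each of the 10 genes by group, on a linear axis from 0 in each panel, where points are libraries and bars give the group mean and SD (n = 3, or n = 2 for Fucotrim II). For MT1E, MT1X and MT1G every treated library lies above the 3 DMSO libraries, and for MTF1 every treated library lies below them.

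The 3 remaining metallothioneins had few counts. MT1F held 20, 18 and 23 counts in DMSO, 46, 22 and 11 with Fucotrim I, 45 and 53 with Fucotrim II, 33, 44 and 37 with SGN-2FF, and 24, 17 and 27 with P-SiaFNEtoc. The Fucotrim II and SGN-2FF libraries lay above DMSO on the CPM scale, with log2 fold changes of 1.27 (SE 0.24) and 1.18 (SE 0.24), and the other groups overlapped it. With Fucotrim I the log2 fold change was 0.72 (SE 0.36) and rested on replicate 1, since without that library it was 0.08. With P-SiaFNEtoc it was 0.15 (SE 0.27).

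MT1H held 4, 3 and 1 counts in DMSO, 7, 14 and 9 with Fucotrim I, 12 and 11 with Fucotrim II, 10, 6 and 9 with SGN-2FF, and 6, 5 and 4 with P-SiaFNEtoc. It passed the filter on low counts in the Fucotrim II comparison alone, through the treated libraries (log2 fold change 2.07, SE 0.53), so a difference there was built into its passing. MT1M held 5, 3 and 0 counts in DMSO and at most 9 in any library, and was fitted in no comparison. At these counts no order of groups could be read for MT1M.

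Further members of the family were scarcer still. MT1B had 0 counts in all 14 libraries, where a count of 0 allows up to 3 counts in a library, for counting error only. MT1A had at most 3 counts in a library, MT4, MT1DP and MT1IP at most 2, and MT1HL1 and MT1JP at most 1. MT1L held 8 to 29 counts and MT3 held 3 to 18. MT1L was tested in all 4 comparisons and MT3 in those with Fucotrim II and SGN-2FF, and neither passed an adjusted p of 0.05 in the edgeR fit (lowest adjusted p = 0.0578, MT1L with SGN-2FF, log2 fold change 0.88, SE 0.33).

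Counted over the family, metallothioneins were mostly higher, and each count stands beside the share of all fitted genes past the same threshold (adjusted p under 0.05). With Fucotrim I, 4 of the 5 fitted metallothioneins were higher (background 21.6% of 14188 genes), and 5 of 7 had all libraries above DMSO (background 25.6%). With Fucotrim II, 6 of 6 were higher (background 25.6% of 14617 genes), MT1H included, and 7 of 7 lay above DMSO (background 33.5%). With SGN-2FF, 5 of 5 were higher (background 11.5% of 14312 genes) and 7 of 7 lay above DMSO (background 18.6%). With P-SiaFNEtoc, 3 of 5 were higher (background 9.02% of 14259 genes), namely MT1E, MT1G and MT1X, and 4 of 7 lay above DMSO (background 17.3%). The counts above DMSO cover all 7 genes, fitted or not, on the scale of 14 libraries. Their background covers fitted genes only, on the scale of each fit. Since the genes were picked on these contrasts, nothing is read from these counts.

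The median log2 fold change of the fitted metallothioneins was 0.82 with Fucotrim I, 1.55 with Fucotrim II, 1.24 with SGN-2FF and 0.32 with P-SiaFNEtoc. The Fucotrim II median includes MT1H, and over the 5 genes fitted in every comparison it was 1.41, while the other medians already rest on those 5. Over all fitted genes the median was below 0.01 in each comparison. Without the mitochondrially encoded genes the MT1G value was 1.27, 2.02, 1.66 and 0.57 in the same order, as large as with them.

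**Figure D3:**
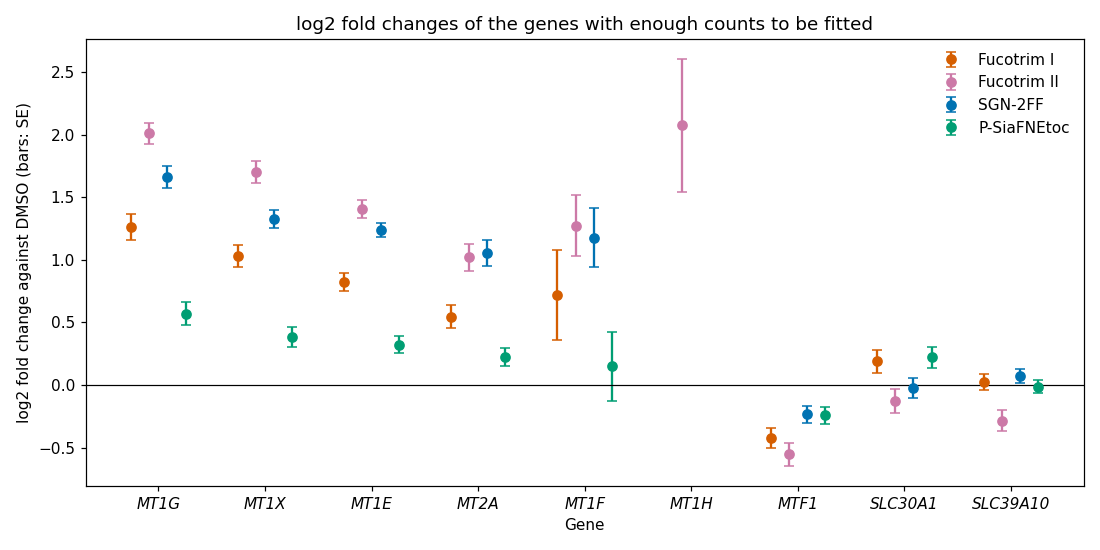
log2 fold change against DMSO of the 9 members that were fitted in at least 1 comparison, with bars for the SE and colours for the inhibitors. MT1G, MT1X, MT1E and MT2A lie above 0 with all 4 inhibitors, MTF1 lies below 0 with all 4, and SLC30A1 and SLC39A10 lie between -0.29 and 0.22.

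Transcript length moved with the same contrasts. Among other protein-coding genes with a canonical transcript under 1000 bases, the median log2 fold change was 0.18 with Fucotrim I (675 genes), 0.28 with Fucotrim II (705 genes), 0.10 with SGN-2FF (675 genes) and 0.06 with P-SiaFNEtoc (678 genes), and the share called higher was 43.3%, 46.7%, 21.2% and 11.5%. For longer transcripts the median was -0.02, -0.03, -0.01 and -0.01. The upper end of the short transcripts, their 90th percentile, was 0.62, 0.97, 0.35 and 0.29, and MT1G, MT1X and MT1E lay above it with each inhibitor, while MT2A lay above it with Fucotrim II and SGN-2FF. This split was chosen after the values were seen, and the part of transcript length in the metallothionein values was not tested.

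Summed over the 7 genes, the metallothionein level was 167, 174 and 186 CPM in DMSO. It was 309, 250.2 and 288 CPM with Fucotrim I, 385 and 449 CPM with Fucotrim II, 426, 375 and 363 CPM with SGN-2FF and 199, 212 and 226 CPM with P-SiaFNEtoc. The groups did not overlap DMSO, and the ratio of the means was 1.61, 2.37, 2.21 and 1.21.

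The family's make-up also differed between groups. MT2A gave 68.8% ± 2.21 (SD, n = 3) of the metallothionein counts in DMSO, 61.9% ± 1.28 (n = 3) with Fucotrim I, 58.9% ± 4.14 (n = 2) with Fucotrim II, 64.1% ± 1.86 (n = 3) with SGN-2FF and 66.3% ± 2.26 (n = 3) with P-SiaFNEtoc. MT1G gave 6.05% ± 0.202 in DMSO and 8.92% ± 0.66, 10.3% ± 0.811, 8.59% ± 0.443 and 7.41% ± 0.619 in the treated groups. The ranges of MT1G did not overlap DMSO in any treated group, whereas those of MT2A overlapped DMSO with P-SiaFNEtoc. Per kilobase of canonical transcript, the mean level in DMSO was 302 CPM for MT2A, 42.5 for MT1X, 34.0 for MT1E, 25.9 for MT1G, 2.78 for MT1F, 0.379 for MT1H and 0.372 for MT1M. Among neighbours in that order, MT1H and MT1M differed by less than the spread between libraries.

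**Figure D4:**
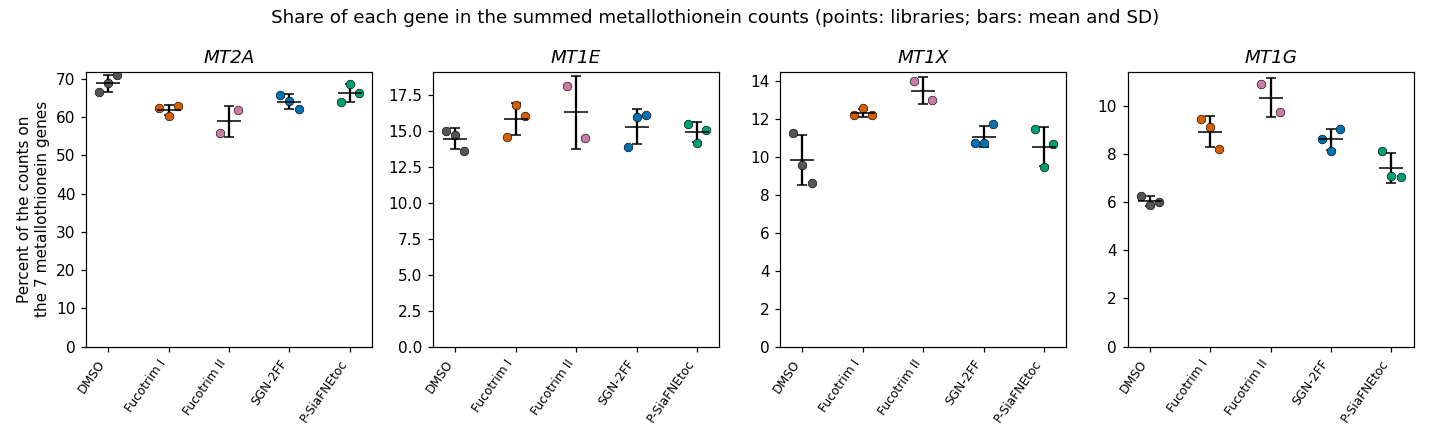
Share of MT2A, MT1E, MT1X and MT1G in the counts summed over the 7 metallothionein genes, in percent from 0 in each panel, where points are libraries and bars give the mean and SD. The MT2A share is 68.8% in DMSO and 58.9% with Fucotrim II, and the MT1G share is 6.05% and 10.3%.

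MTF1, the zinc sensor and activator of these genes, was lower in every treated group. It stood at 33.9, 36.3 and 30.7 CPM in DMSO, 24.1, 23.9 and 26.7 CPM with Fucotrim I, 23.0 and 22.9 CPM with Fucotrim II, 29.2, 29.3 and 26.4 CPM with SGN-2FF and 27.2, 29.8 and 28.4 CPM with P-SiaFNEtoc. Every treated library lay below every control library. The log2 fold change was -0.42 (SE 0.08), -0.55 (SE 0.09), -0.23 (SE 0.07) and -0.24 (SE 0.07).

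MTF1 was the 1 member called lower with Fucotrim I (background 22.1% called lower and 27% entirely below DMSO), with SGN-2FF (background 9.08% and 17.4%) and with P-SiaFNEtoc (background 7.33% and 16.4%). With Fucotrim II, MTF1 and SLC39A10 were called lower (background 25.7% and 34.2%). In either direction, 43.8%, 51.4%, 20.6% and 16.3% of all fitted genes passed for Fucotrim I, Fucotrim II, SGN-2FF and P-SiaFNEtoc respectively. The SGN-2FF call of MTF1 was lost without DMSO replicate 2 (-0.18) and without SGN-2FF replicate 3 (-0.19) and by the DESeq2 test (-0.24), and that with P-SiaFNEtoc without DMSO replicate 2 (-0.19) or P-SiaFNEtoc replicate 1 (-0.21).

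SLC30A1, the plasma membrane exporter and a textbook MTF1 target, was close to its control level in every group. It stood at 20.7, 18.2 and 18.9 CPM in DMSO, 20.5, 24.4 and 20.2 CPM with Fucotrim I, 17.1 and 18.2 CPM with Fucotrim II, 18.9, 18.8 and 18.5 CPM with SGN-2FF and 24.9, 21.4 and 20.4 CPM with P-SiaFNEtoc. All treated groups overlapped DMSO. The log2 fold change was 0.19 (SE 0.09), -0.13 (SE 0.10), -0.02 (SE 0.08) and 0.22 (SE 0.08), none of which was called. With P-SiaFNEtoc it was called without DMSO replicate 1 (0.27), without P-SiaFNEtoc replicate 3 (0.28) and with no filter on low counts, and the Fucotrim I value was 0.09 without Fucotrim I replicate 2.

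SLC39A10, an importer at the cell surface, stood at 53.9, 57.0 and 51.9 CPM in DMSO, 53.6, 57.8 and 52.4 CPM with Fucotrim I, 47.8 and 41.5 CPM with Fucotrim II, 51.9, 57.6 and 59.6 CPM with SGN-2FF and 55.1, 55.1 and 50.4 CPM with P-SiaFNEtoc. Only the Fucotrim II group did not overlap DMSO, and it lay below. The log2 fold change there was -0.29 (SE 0.08), and its call was lost without DMSO replicate 2 (-0.26) and at an adjusted p under 0.01. With either Fucotrim II library left out it ranged from -0.39 to -0.19. In the other comparisons it was 0.02 (SE 0.06), 0.07 (SE 0.06) and -0.01 (SE 0.05).

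Over the 14 libraries, the log2 CPM of MT1E, MT1G, MT1X and MT2A was correlated in all 6 pairs (Pearson r 0.923 to 0.99), a description that mostly reflects the differences between groups, since within groups r was 0.157 to 0.619. Of the 11836 genes averaging 50 or more counts per library, those most like MT2A were MT1E (r = 0.941), MT1G (0.938), MT1X (0.923), KMT5C (0.898) and TMEM79 (0.897). Those most like SLC30A1 were FBXW7 (0.786), MYO18A (0.767), DIO2 (0.746), DSC2 (0.731) and TMLHE (0.723). The points share their libraries and scaling.

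Other zinc and copper genes, tested by edgeR with p-values adjusted over all genes, gave 16 of 28 called with Fucotrim I (6 higher, 10 lower), 19 of 30 with Fucotrim II (5 higher, 14 lower), 6 of 29 with SGN-2FF (2 higher, 4 lower) and 3 of 28 with P-SiaFNEtoc (2 higher, 1 lower). Over all fitted genes the share called was 43.8%, 51.4%, 20.6% and 16.3%, so the SGN-2FF count was close to the background and the P-SiaFNEtoc count below it. The lists were written with earlier results of these data known. The Fucotrim II count was 12 without DMSO replicate 2, and the SGN-2FF count was 2 without SGN-2FF replicate 1 and 3 without SGN-2FF replicate 2. With P-SiaFNEtoc it was 0 without DMSO replicate 2 or P-SiaFNEtoc replicate 2 and 1 without DMSO replicate 3.

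Zinc exporters of the SLC30 family, which move zinc out of the cytosol, were lower where they passed, with 1 exception. Called lower were 2 of 7 tested with Fucotrim I, 4 of 8 with Fucotrim II, 2 of 8 with SGN-2FF and 1 of 7 with P-SiaFNEtoc. Of all fitted genes 22.1%, 25.7%, 9.08% and 7.33% were called lower in the same order. SLC30A5, a transporter of the early secretory pathway, fell from 102 ± 3.06 to 88.3 ± 4.63 CPM (SD, n = 3 and 3) with Fucotrim I (log2 fold change -0.21, SE 0.06, edgeR adjusted p = 0.00546), and also fell with Fucotrim II (-0.31, SE 0.07, adjusted p = 0.00511) and SGN-2FF (-0.19, SE 0.05, adjusted p = 0.00594). Its value with P-SiaFNEtoc was -0.10 (adjusted p = 0.141). SLC30A6, its partner in that pathway, fell with Fucotrim II (-0.27, adjusted p = 0.0166) and P-SiaFNEtoc (-0.19, adjusted p = 0.0206), and SLC30A9, a mitochondrial zinc transporter, fell with Fucotrim I (-0.16, adjusted p = 0.0258), Fucotrim II (-0.25, adjusted p = 0.0152) and SGN-2FF (-0.14, adjusted p = 0.0287). The SLC30A9 call with Fucotrim I was lost without DMSO replicate 1 or 2 or Fucotrim I replicate 1 or 3, that with Fucotrim II without DMSO replicate 1 or 2, and that with SGN-2FF without DMSO replicate 1 or SGN-2FF replicate 1 or 2 (adjusted p = 0.0523 to 0.142 over these fits). The SLC30A6 calls were lost without DMSO replicate 1 or 2 with Fucotrim II and without DMSO replicate 2 or P-SiaFNEtoc replicate 2 or 3 with P-SiaFNEtoc, and the SLC30A5 call with SGN-2FF was lost without SGN-2FF replicate 2 (adjusted p = 0.055). The 1 higher call was SLC30A3 with Fucotrim I, named after its values were seen (0.537 ± 0.0864 CPM in DMSO against 1.30 ± 0.562, SD, n = 3 and 3, and 5 to 23 counts per library, log2 fold change 1.22, SE 0.37, adjusted p = 0.0107). SLC30A10, also named after its values were seen and with 5 to 26 counts per library, fell with Fucotrim II (-1.24, SE 0.38, adjusted p = 0.0216).

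Zinc importers of the SLC39 family moved in both directions. SLC39A13, which carries zinc in the secretory pathway, rose with Fucotrim I (log2 fold change 0.41, SE 0.10, adjusted p = 0.00242), Fucotrim II (1.22, SE 0.10, adjusted p = 2.6e-05) and P-SiaFNEtoc (0.30, SE 0.10, adjusted p = 0.0398), and stood at 0.22 (adjusted p = 0.139) with SGN-2FF. The P-SiaFNEtoc call was lost without DMSO replicate 2 or 3 and without P-SiaFNEtoc replicate 2, where the value was 0.18 (adjusted p = 0.291). SLC39A4, the importer mutated in acrodermatitis enteropathica, rose with Fucotrim I (0.40, adjusted p = 0.000352) and Fucotrim II (0.61, adjusted p = 0.00106), and SLC39A8, a zinc and manganese importer, fell with both (-0.33, adjusted p = 5.58e-05, and -0.66, adjusted p = 9.68e-05). With SGN-2FF, 0 of 9 importers passed, where 20.6% of all fitted genes did, and nothing is read from so small a count. SLC39A7, a major endoplasmic reticulum importer, is listed with at most 1 count per library, and SLC39A12 with 0 counts. How reads mapping to several places were counted is not given, so these counts are not read as a lack of the transcripts.

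Copper handling genes were measured because metallothioneins also bind copper. CCS, the copper chaperone for superoxide dismutase, rose with Fucotrim I (log2 fold change 0.43, SE 0.09, adjusted p = 0.000485), Fucotrim II (0.92, SE 0.10, adjusted p = 7.16e-05) and SGN-2FF (0.28, SE 0.08, adjusted p = 0.0113), the last of these lost without SGN-2FF replicate 1 (adjusted p = 0.0655). ATP7A, a copper-exporting ATPase, fell with the same inhibitors (-0.47, -0.69 and -0.29, adjusted p = 0.000485, 0.00036 and 0.00846). SCO1, which delivers copper to cytochrome c oxidase, fell with Fucotrim I (-0.25, adjusted p = 0.00483) and Fucotrim II (-0.54, adjusted p = 0.000339). None of the 12 copper genes passed with P-SiaFNEtoc, where 16.3% of all fitted genes did, and nothing is read from so small a count.

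**Figure D5:**
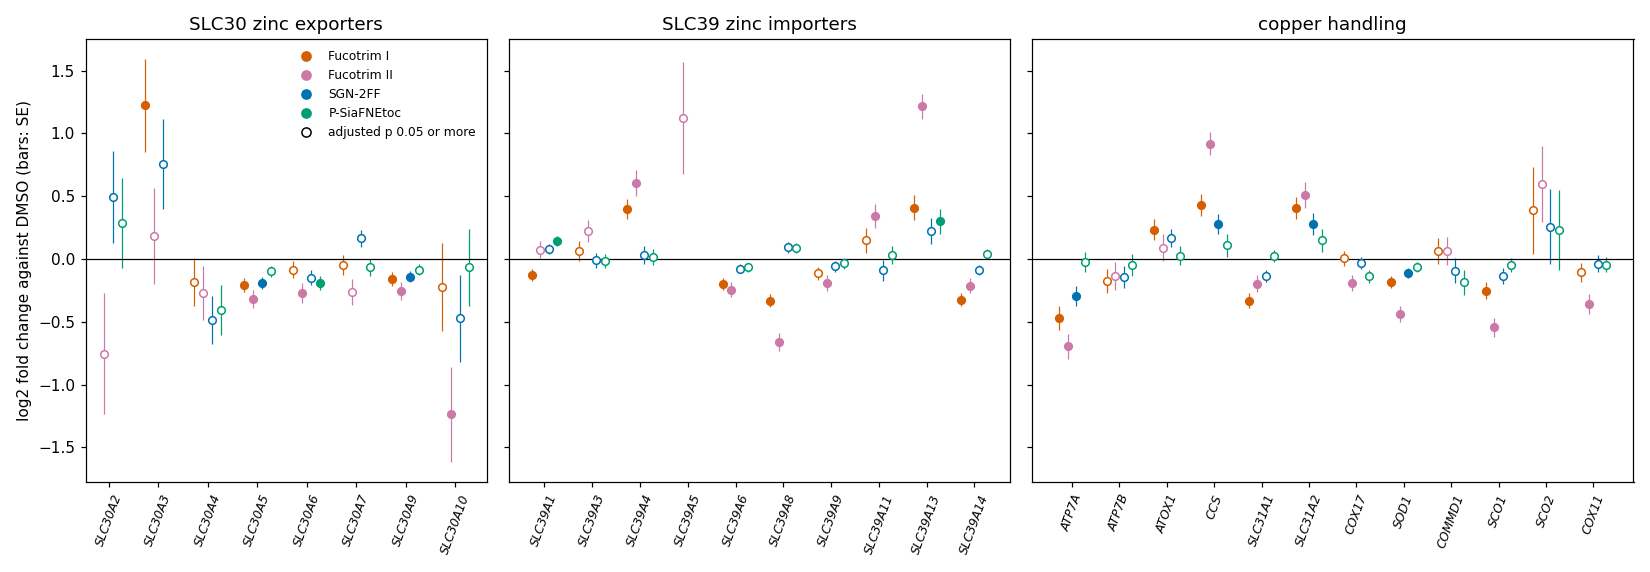
log2 fold change against DMSO, with SE bars, of the tested zinc exporters, zinc importers and copper genes other than members, where filled points passed an adjusted p of 0.05. SLC39A13 and CCS reach 1.22 and 0.92 with Fucotrim II, whereas ATP7A and SLC39A8 reach -0.69 and -0.66.

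Genes induced by metals and oxidants other than metallothioneins were mostly lower where they passed. Of 8 tested, 1 rose and 5 fell with Fucotrim I, 5 fell with Fucotrim II, 5 fell with SGN-2FF, and 1 rose and 1 fell with P-SiaFNEtoc. Of all fitted genes 22.1%, 25.7%, 9.08% and 7.33% were called lower, and 21.6%, 25.6%, 11.5% and 9.02% higher. GCLM, the modifier subunit of the enzyme that starts glutathione synthesis, fell with all 4 inhibitors (log2 fold change -0.69, -1.05, -0.64 and -0.19, adjusted p = 3.22e-08, 1.85e-05, 8.57e-11 and 0.00381). TXNRD1, the cytosolic thioredoxin reductase, fell with Fucotrim I (-0.70, SE 0.05, adjusted p = 4.79e-10), Fucotrim II (-0.71, SE 0.06, adjusted p = 3.2e-05) and SGN-2FF (-0.62, SE 0.03, adjusted p = 4.04e-14). HMOX1, the inducible heme oxygenase, fell with these 3 inhibitors (-0.36, -0.79 and -0.78) and stood at 0.20 (adjusted p = 0.025) with P-SiaFNEtoc, a call lost without DMSO replicate 2 or 3 and without P-SiaFNEtoc replicate 1 or 3. The 5 genes that fell were the same with Fucotrim I, Fucotrim II and SGN-2FF, namely GCLM, TXNRD1, HMOX1, GCLC and SRXN1. SELENOH rose with Fucotrim I (0.19, SE 0.06, adjusted p = 0.0131) and stood at 0.13, 0.11 and 0.06 with Fucotrim II, SGN-2FF and P-SiaFNEtoc. CSRP1 (0.02 to 0.12) and PGF (-0.18 to 0.20) passed with no inhibitor. GCLC, SRXN1, SELENOH, CSRP1 and PGF were named after their values were seen. HSPA1A and HSPA1B, heat shock genes that metals induce, are listed with at most 1 count per library. As with SLC39A7, these counts are not read as a lack of the transcripts.

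Glucocorticoid-inducible genes, listed together with the glucocorticoid receptor gene NR3C1, were included because metallothioneins respond to glucocorticoids. Of 11 tested, 5 rose and 2 fell with Fucotrim I, 6 rose and 2 fell with Fucotrim II, 3 rose and 2 fell with SGN-2FF, and 1 rose and 2 fell with P-SiaFNEtoc. Of all fitted genes 21.6%, 25.6%, 11.5% and 9.02% were called higher, and 22.1%, 25.7%, 9.08% and 7.33% lower. KLF9, a transcription factor, rose with Fucotrim I (log2 fold change 1.14, SE 0.08, adjusted p = 4.79e-10), Fucotrim II (1.06, SE 0.09, adjusted p = 2.57e-05) and SGN-2FF (0.66, SE 0.07, adjusted p = 1.45e-07), and its value with P-SiaFNEtoc was 0.07 (adjusted p = 0.585). FKBP5, a steroid receptor co-chaperone, rose with the same 3 inhibitors (0.98, 0.68 and 0.35, adjusted p = 3.55e-12, 4.12e-05 and 5.25e-08) and fell with P-SiaFNEtoc (-0.15, adjusted p = 0.00833). CEBPD rose with Fucotrim II (0.50, adjusted p = 0.00749), a call lost without Fucotrim II replicate 2 (0.44). The genes that fell, other than FKBP5, were chosen for naming after their values were seen. NR3C1, the receptor itself and so not read as an induced gene, is 1 of the 2 that fell in each comparison. Its values were -0.22, -0.36, -0.40 and -0.26 (adjusted p = 0.0399, 0.0138, 0.00014 and 0.00535). Its Fucotrim I call was lost without DMSO replicate 1 or 2 and without Fucotrim I replicate 3 (-0.12). ERRFI1, a feedback inhibitor of EGFR signalling, fell with Fucotrim I (-0.25, adjusted p = 0.0085, lost without Fucotrim I replicate 1) and Fucotrim II (-0.40, adjusted p = 0.00189) and rose with P-SiaFNEtoc (0.43, adjusted p = 4.38e-07). PER1, a circadian clock gene, fell with SGN-2FF (-0.26, adjusted p = 0.00238). It rose with Fucotrim II (0.24, adjusted p = 0.0209), a call lost without DMSO replicate 1, 2 or 3. The luminal prostate markers were also higher where they passed, with 7, 7, 8 and 7 of 10 called higher, none called lower and median log2 fold changes of 0.41, 0.47, 0.30 and 0.17 with Fucotrim I, Fucotrim II, SGN-2FF and P-SiaFNEtoc. Among the markers of other cell types 1 of 4 tested, 2 of 4, 1 of 4 and 0 of 3 were called higher in that order. The part of these markers in the metallothionein values was not tested.

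Genes around the metallothionein cluster were also measured. The genes described here lie within 300 kb of its ends. BBS2, 25.9 kb from the cluster, and NUP93, 45.9 kb from it, had log2 fold changes of -0.18 (adjusted p = 0.0612) and -0.41 (adjusted p = 0.00117) with Fucotrim II. HERPUD1, an endoplasmic reticulum stress gene 247.9 kb away, fell with Fucotrim I (-1.17, SE 0.06, adjusted p = 2.38e-11) and stood at 0.08 (adjusted p = 0.304) with Fucotrim II. NUDT21, an RNA cleavage factor, fell with Fucotrim I, Fucotrim II and P-SiaFNEtoc (-0.21, -0.48 and -0.14, adjusted p = 0.00203, 0.000684 and 0.0222), and its P-SiaFNEtoc call was lost without DMSO replicate 2 or P-SiaFNEtoc replicate 2 or 3.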

How the data were processed

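RNA of 14 libraries was measured by stranded mRNA sequencing. The authors used Cutadapt for trimming, HISAT2 for alignment to hg38 and featureCounts for gene assignment. The deposited values are raw whole-number counts in 4 tables, 1 for each inhibitor, and every table repeats the DMSO columns. The annotation release, strand setting and treatment of reads mapping to several places are not given in the sources used here. DMSO counts were identical in all 4 tables. The SGN-2FF table gives only NCBI gene numbers and was joined by them. Groups and replicate numbers follow the labels, which call the libraries biological repeats.

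The members and gene lists were chosen with earlier results of these data known. Counts were analysed with edgeR 4.0.16 in R 4.3.3: filterByExpr (minimum count 10, minimum total 15), TMM scaling, robust quasi-likelihood test of each inhibitor with DMSO, and Benjamini-Hochberg adjustment over all genes. The SE is the log2 fold change divided by the root of the F statistic. Levels are CPM on 1 TMM scale over 14 libraries, except those beside list genes, which use the scale of their own fit. The test was tried on simulated data. Named genes were the 10 members, at most 3 genes of each list with the largest called change and a mean of at least 50 counts, the tested genes within 300 kb of the cluster (1 is not reported here), and the 5 genes most like MT2A and SLC30A1. Promoters came from RefSeq, positions and lengths from GENCODE, and windows were searched with BLAST 2.17.0+. Alternatives used DESeq2 1.42.0 and limma 3.58.1, other filters, thresholds and scalings, and fewer libraries. Library totals of 12553094 to 19981453 set the precision of low counts.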

Additional observations from a re-analysis of the deposited data

How the results depend on the processing

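The log2 fold changes of the members kept their sign in every alternative for 29 of 33 values. The exceptions were SLC39A10 with Fucotrim I and P-SiaFNEtoc, SLC30A1 with SGN-2FF and MT1F with P-SiaFNEtoc. Of 461 alternative values, 5 moved by more than the spread between libraries. Of 1620 alternative values for the 27 named genes outside the members, a choice added after seeing the data, 73 lost their call, 16 gained one and 0 reversed. MT1H with Fucotrim II lost its call by the DESeq2 test (2.14). At an adjusted p under 0.01 the calls of MTF1 with SGN-2FF and P-SiaFNEtoc were lost. MT2A with P-SiaFNEtoc gained one in 5 alternatives, 0.29 without DMSO replicate 3 among them.

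The number of genes called was 2946 with SGN-2FF and 2331 with P-SiaFNEtoc. It was 1942 and 1482 by the DESeq2 test, 1609 and 1171 at an adjusted p under 0.01, and 1695 and 998 in 1 fit of all 14 libraries. Zinc and copper genes called numbered 11 with Fucotrim II and 2 with SGN-2FF at an adjusted p under 0.01, and 2 with SGN-2FF in 1 fit of all libraries. With P-SiaFNEtoc they numbered 1 by the DESeq2 test and 0 at an adjusted p under 0.01 or in 1 fit of all libraries, against 3 by edgeR. The cause of these shifts was not tested, apart from the stricter threshold, which lowers counts by construction.

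Leaving out 1 library at a time gave 4877 to 6297 genes with Fucotrim I, 5916 to 8271 with Fucotrim II, 1642 to 3109 with SGN-2FF (lowest without SGN-2FF replicate 2) and 1516 to 2115 with P-SiaFNEtoc (lowest without P-SiaFNEtoc replicate 2). Zinc and copper genes called ranged from 12 to 15, 12 to 20, 2 to 8 and 0 to 4 in the same order. Where Fucotrim II was left with 1 library, that library was assumed to vary like the controls.

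The labels do not say that a number marks a shared batch. Deviations of same-numbered libraries had r of 0.02 to 0.13 with Fucotrim I, -0.10 to 0.02 with SGN-2FF and -0.04 to 0.02 with P-SiaFNEtoc, and in none of these did every library correlate best with its own number, so the numbers were not taken to pair them. With Fucotrim I the exception was Fucotrim I replicate 3 (r = 0.02 with DMSO replicate 3 and 0.05 with DMSO replicate 2). A replicate block gave 7288 genes with Fucotrim I (6209 without it), 2868 with SGN-2FF and 2674 with P-SiaFNEtoc. The block gave MT1F and SLC30A1 a call with Fucotrim I, and MT2A and SLC30A1 one with P-SiaFNEtoc. For Fucotrim II, titles and library names number the libraries differently (r = -0.15 and -0.19 by titles, 0.19 and 0.05 by library names). The block by title numbers ended the calls of SLC39A10 (-0.32), SLC30A5, SLC30A6 and SLC30A9 and gave 5294 genes and 9 zinc and copper genes, and by library names 7746 and 22. Counts this low in MT1H and MT1M limit what can be read for them at this depth.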
